A study of Mus musculus with 8 samples.

Results

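The 40 genes described here drive or restrain the cell division cycle, and each was taken from the deposited count table by its gene symbol. They comprise 12 replication genes (Cdc6, Cdt1, Mcm2 to Mcm7, Pcna, Rrm1, Rrm2 and Tyms), 16 mitotic genes (Mki67, Top2a, Ccna2, Ccnb1, Ccnb2, Cdk1, Cdc20, Bub1, Aurka, Aurkb, Plk1, Birc5, Ube2c, Cenpf, Kif11 and Tpx2), 9 genes of entry into the cycle (Ccnd1 to Ccnd3, Ccne1, Ccne2, Cdk2, Cdk4, Cdk6 and E2f1) and 3 brakes (Rb1, Cdkn1b and Cdkn2c). All 40 were among the 53801 genes of the table, and 35 of them had enough counts to be tested, among 15945 genes in all. The other 5 (Cdt1, Ccnb1, Bub1, Aurkb and Plk1) are given as counts.

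The cells were stromal cells without the leukocyte marker CD45 or the endothelial marker CD31, sorted from small-intestinal ulcers of LTβRYFP mice; LTβR is the lymphotoxin β receptor. Indomethacin, which blocks cyclooxygenases and can ulcerate the small intestine, had been given in both groups. The sort divided the cells into YFP+ and YFP- fractions, with 4 libraries each, numbered 1 to 4 in both. The sources used here do not give the age of the mice, the dose, how the YFP reporter is driven or whether equal numbers mark the same mouse.

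A cell that enters the cycle first makes D-type cyclins, which with CDK4 and CDK6 inactivate the retinoblastoma protein and free E2F factors. E2F factors then switch on cyclin E and the replication genes, whose products license origins, supply nucleotides and form the replicative helicase and clamp. Mitotic genes come on later and encode the cyclin B kinase, spindle motors, spindle checkpoint proteins and the ubiquitin ligase that ends mitosis. Quiescent fibroblasts hold most of both programmes low.

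Total counts per library ranged from 12481608 to 29385718, and the 40 genes took 6926 to 19703 counts in a library. The 2 libraries of replicate number 2 were the shallowest, with 12481608 counts in YFP- and 14564835 in YFP+. Levels are in CPM, counts scaled to the library's size: 10 counts are 0.340 CPM of the deepest library's total and 0.801 CPM of the shallowest's. The 2 libraries of replicate number 2 stood apart on the first principal component (35.5% of the variance), at 78.7 in YFP+ and 92.5 in YFP-, with the other 6 between -46.2 and -12.4. Fibroblast markers (Col1a1, Dcn, Pdgfra and 4 others) were abundant in every library, with sums of 21172 to 34509.5 CPM in YFP+ and 25617 to 50713 CPM in YFP- libraries. Their sum was lower in the YFP+ library of 4 of 4 pairs, and 4 of the 7 were called lower with the block described next; the part of this and of the next lists in the values below was not tested. The 6 markers of pericytes and smooth muscle summed to 1382 to 2071 CPM in YFP+ and 1537 to 2082 CPM in YFP- libraries, with 3 called higher and 1 lower with the block. The 4 markers of enteric glia summed to 1.52 to 3.86 CPM in YFP+ and 5.21 to 33.6 CPM in YFP- libraries, lower in the YFP+ library of 4 of 4 pairs, with 1 called lower. No marker of leukocytes, endothelium or epithelium was called. The 10 leukocyte markers summed to 14.7 to 41.6 CPM in YFP+ and 11.7 to 22.2 CPM in YFP- libraries, with Itgam at 0 in all. The 7 endothelial markers summed to 33.9 to 171 CPM in YFP+ and 43.9 to 98.5 CPM in YFP- libraries. The 9 epithelial markers summed to 0.720 to 113 CPM in YFP+ and 1.82 to 21.7 CPM in YFP- libraries. Mitochondrially encoded genes took 7.71% to 9.43% of counts in YFP+ and 8.07% to 12.4% in YFP- libraries.

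None of these genes passed the test between YFP+ and YFP- cells. Of the 35 tested, 0 were called higher and 0 lower (edgeR, adjusted p = 0.99985 for each), in a fit that called 0% of the 15945 genes. A second fit took the replicate number as a block, so that libraries of equal number were compared with each other. It again called 0 of 35 (lowest adjusted p = 0.156, edgeR), against 2.28% of all genes, 0.696% higher and 1.59% lower. DESeq2 called 0 of them without the block, against 0.0126% of all genes, and 0 with it, against 3.43%. At an unadjusted p under 0.05, 0 of 35 members passed without the block, against 2.04% of all genes (0.978% higher and 1.06% lower). With the block 4 of 35 passed, or 11.4%, against 11.1% of all genes. Of those, 3 had positive differences (Mcm6, Cdk2 and Cdk6), against 4.69% of all genes, and 1 a negative one (Ccnd2), against 6.42%. In no tested member did the YFP+ and YFP- libraries separate without overlap, as they did in 1.55% of all genes. In 8 of 35 members, or 22.9%, the YFP+ library lay on the same side in all 4 pairs of equal number, against 19% of all genes, so that share was near the background. It was higher in 4 (Mcm6, Ccne1, Cdk2 and Cdk6), against 8.86% of all genes. It was lower in 4 (Pcna, Tyms, Ccnd2 and Ccnd3), against 10.2%. For Tyms and Ccnd3 pair 3 was nearly tied, at 7.56 against 7.59 CPM and 91.88 against 91.92 CPM. In the authors' deposited table, none of the 37 members with an adjusted p passed 0.05 (lowest 0.175, for Mcm6).

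**Figure D1:**
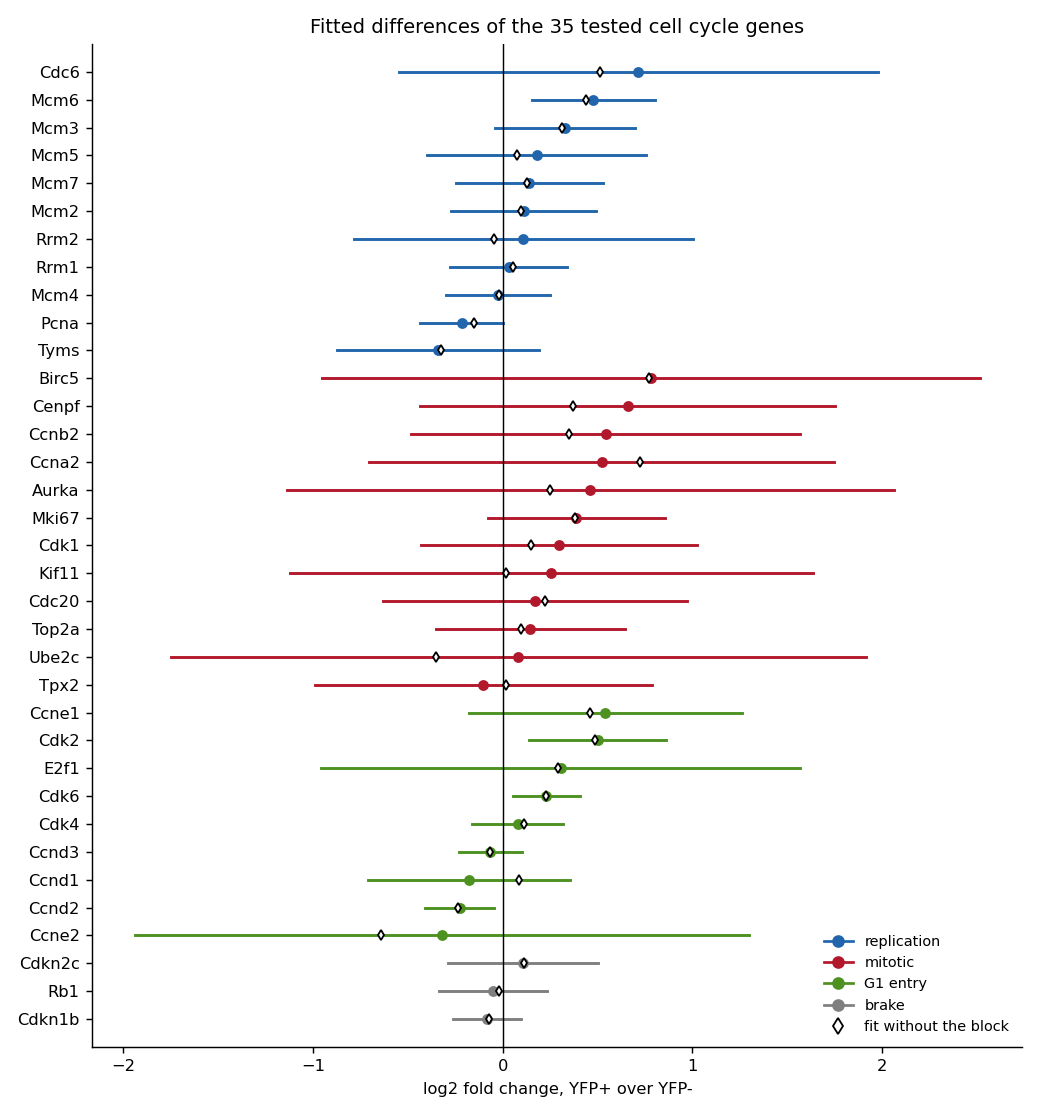
Fitted log2 fold change of YFP+ over YFP- cells (x axis) for the 35 tested genes, coloured by role. Filled circles and bars give the estimate and 95% interval of the edgeR fit that has the block, and open diamonds the estimate without it; bars are widest for the low mitotic genes and narrowest for Ccnd3 and Cdk6.

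The mitotic genes, which had the fewest counts, had the widest errors. The median standard error of a log2 fold change was 0.55 for the 12 tested mitotic genes, 0.27 for the 11 replication genes, 0.25 for the 9 entry genes and 0.23 for the brakes without the block. It was 0.50, 0.18, 0.17 and 0.13 with it. Ccnd3 (cyclin D3), the member with the most counts (13671), had a 95% interval of -0.23 to 0.10 with the block, which is a 0.852-fold to 1.07-fold level. Birc5 (survivin, a part of the chromosomal passenger complex), with 208 counts, had an interval of -0.95 to 2.52.

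The letters around the start sites show how the replication and mitotic genes differ as sets. Promoter windows of 300 bases (250 before to 50 after the start; RefSeq, GRCm38.p6) were found for 32 of the 40 genes, in 35 windows. They were searched on both strands for E2F words (TTTCCCGC, TTTGGCGC, TTTCGCGC or TTTGCCGC), for the cell cycle genes homology region or CHR (TTTGAA or TTCGAA), an element read by the MuvB complexes, and for the box bound by NF-Y (CCAAT). An E2F word stood in 6 of 12 replication windows and in 1 of 13 mitotic windows, against 2.26% of all 32851 windows. A CHR stood in 2 of 12 replication windows and in 11 of 13 mitotic windows, against 19.2% of all. The NF-Y box was in 9 of 12 replication windows, 12 of 13 mitotic windows and 37.4% of all, and the CHR and the NF-Y box together in 2 of 12, 11 of 13 and 7.52%. The words can overlap each other, a match is a run of letters and not a shown site, and binding was not measured here.

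**Figure D2:**
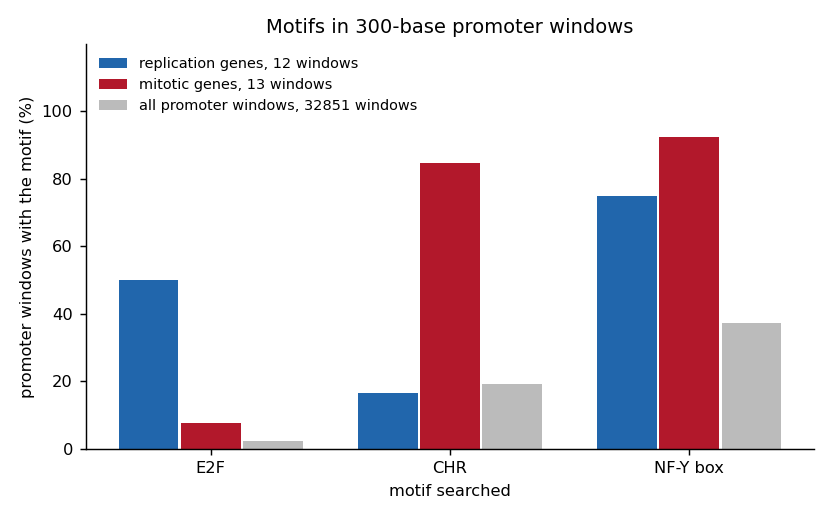
Percentage of 300-base promoter windows (y axis) that hold each motif (x axis), for 12 windows of replication genes, 13 of mitotic genes and all 32851 windows. E2F words are most frequent in the replication windows at 50% and the CHR in the mitotic windows at 84.6%.

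Windows of 5 members, from position -160 to position 40, are printed. Mcm6, Mcm5, Cdc20 and Ccnb2 were picked because they carry this contrast, and Cdk1 holds all 3 motifs. Capitals mark every match to the 3 motifs, and positions are counted from the start, with no position 0. Mcm6 (chr1:128359666-128359865, minus strand) and Mcm5 (chr8:75109349-75109548, plus strand) are replication genes. Cdk1 (chr10:69352873-69353072, minus strand), Cdc20 (chr4:118437304-118437503, minus strand) and Ccnb2 (chr9:70421515-70421714, minus strand) are mitotic.
Mcm6: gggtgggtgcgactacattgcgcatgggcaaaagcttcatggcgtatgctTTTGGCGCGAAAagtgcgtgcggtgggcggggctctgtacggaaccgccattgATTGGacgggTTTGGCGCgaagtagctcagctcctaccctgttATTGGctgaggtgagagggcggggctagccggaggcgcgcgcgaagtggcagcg
Mcm5: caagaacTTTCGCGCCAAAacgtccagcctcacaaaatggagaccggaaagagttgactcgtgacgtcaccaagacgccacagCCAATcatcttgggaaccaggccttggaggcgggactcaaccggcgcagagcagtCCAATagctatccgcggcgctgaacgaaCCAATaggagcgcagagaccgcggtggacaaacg
Cdk1: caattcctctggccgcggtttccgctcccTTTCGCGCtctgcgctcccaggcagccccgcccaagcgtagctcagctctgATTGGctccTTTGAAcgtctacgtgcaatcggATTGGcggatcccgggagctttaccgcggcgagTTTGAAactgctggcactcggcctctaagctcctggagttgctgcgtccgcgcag
Cdc20: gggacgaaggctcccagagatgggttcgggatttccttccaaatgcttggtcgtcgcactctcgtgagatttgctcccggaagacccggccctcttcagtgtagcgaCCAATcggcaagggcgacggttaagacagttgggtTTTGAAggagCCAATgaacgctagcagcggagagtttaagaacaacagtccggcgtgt
Ccnb2: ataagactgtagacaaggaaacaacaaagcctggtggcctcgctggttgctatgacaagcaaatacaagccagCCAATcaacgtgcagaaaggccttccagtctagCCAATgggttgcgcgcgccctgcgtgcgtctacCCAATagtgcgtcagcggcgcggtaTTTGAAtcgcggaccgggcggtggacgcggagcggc
Mcm6 and Mcm5 each hold overlapping E2F words on opposite strands, starting at -110 and -106 in Mcm6 and at -153 and -149 in Mcm5, and neither holds a CHR. Cdc20 holds a CHR at -18 between NF-Y boxes at -53 and -8, Ccnb2 holds one at 5 after NF-Y boxes at -87, -54 and -21 and another at -167, before the printed stretch, and neither holds an E2F word. Cdk1 was the mitotic gene with all 3 motifs.

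Among the replication genes, the 6 subunits of the MCM helicase were not called, and Mcm6 came nearest. Mcm6 (ENSMUSG00000026355, GRCm38 chromosome 1, 128331590 to 128359664, minus strand) was at 27.1, 22.0, 27.0 and 27.4 CPM in YFP+ libraries 1 to 4, against 17.7, 11.9, 25.3 and 21.1 CPM in YFP- libraries 1 to 4. The YFP+ library was higher in 4 of 4 pairs, but YFP- library 3 lay above YFP+ library 2, so the groups overlapped. The means were 25.8 ± 2.60 CPM in YFP+ and 19.0 ± 5.65 CPM in YFP- cells (SD, n = 4), and the log2 fold change was 0.44 ± 0.238 (SE) without and 0.48 ± 0.152 with the block. It was not called in either fit (adjusted p = 0.99985 and 0.156, edgeR). Its partner Mcm4 was at 34.4, 26.4, 26.9 and 33.4 CPM in YFP+ and at 27.0, 29.8, 32.7 and 33.3 CPM in YFP- libraries 1 to 4. The YFP+ library of Mcm4 was higher in 2 of 4 pairs (log2 fold change -0.03, 95% interval -0.30 to 0.25 with the block). The other 4 helicase subunits, Mcm2, Mcm3, Mcm5 and Mcm7, had log2 fold changes of 0.11, 0.33, 0.18 and 0.14 with the block, none of them called (adjusted p = 0.538 or higher, edgeR).

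Cdc6, which helps load the helicase onto origins, had the largest fitted difference of the replication genes and few counts (428 in all). It was at 2.00, 4.63, 2.80 and 2.41 CPM in YFP+ and at 4.23, 0.596, 2.26 and 1.11 CPM in YFP- libraries 1 to 4. Pair 1 went against the other 3, and YFP- library 2 was the lowest. The log2 fold change was 0.72 ± 0.594 (SE) with the block (adjusted p = 0.770, edgeR), and 0.51 without it, or -0.07 without both libraries of number 2. Its licensing partner Cdt1 was listed at 0 in all 8 libraries. Only if its reads were counted would counting error (3 counts) set an upper limit, of 0.101 to 0.256 CPM by library. Cdt1 lies wholly inside the span of Gm20388 on the same strand (GENCODE M21, chromosome 8, 119910841 to 124345722), a gene with 67780 counts whose exons cover 0% of the exons of Cdt1. All 36 coding genes inside that span on its strand were at 0, against 1 of 35 on the other strand. Across the table, 371 of 371 coding genes nested in another coding gene on the same strand were at 0, against 23.4% of 531 nested on the opposite strand only and 17.2% of all 21890. Whether Cdt1 was expressed cannot be read from its zero, and the cause of the pattern was not tested.

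The other replication genes supply nucleotides or clamp the polymerase. Pcna, the sliding clamp, was at 70.1, 91.2, 49.2 and 24.98 CPM in YFP+ and at 71.8, 98.1, 52.6 and 39.3 CPM in YFP- libraries 1 to 4. Both groups fell into the same order of replicate numbers, with number 2 highest and number 4 lowest, and the YFP+ library was the lower in 4 of 4 pairs. The log2 fold change was -0.22 ± 0.103 (SE) with the block (adjusted p = 0.460, edgeR) and -0.15 without it. The annotated copy Pcna-ps2 matches 51.4% of the Pcna transcript at 98% identity or more and held 72 counts against 9994 for Pcna, so reads may be shared between them. Tyms (thymidylate synthase) averaged 5.81 ± 1.76 CPM in YFP+ and 7.30 ± 1.85 CPM in YFP- cells (SD, n = 4). Its YFP+ library was the lower in 4 of 4 pairs, with pair 3 nearly tied (7.56 against 7.59 CPM). Rrm1 and Rrm2, the ribonucleotide reductase subunits, had log2 fold changes of 0.03 and 0.11 with the block. Tyms, Rrm1 and Rrm2 were not called (adjusted p = 0.724, 0.978 and 0.974 with the block, edgeR).

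The mitotic genes were low in every library. Their median level over the 16 genes was 0.460 CPM per kb of exon, against 1.93 for the 12 replication genes, 3.69 for the entry genes and 4.88 for the brakes. Per kb of the gene's whole span the medians were 0.110, 0.789, 0.816 and 1.91, in the same order. The replication medians include Cdt1 at its listed 0, which cannot be read as a level. Mki67, the proliferation marker Ki-67, was at 11.7, 13.2, 20.2 and 22.1 CPM in YFP+ and at 17.1, 8.43, 10.6 and 15.4 CPM in YFP- libraries 1 to 4. The YFP+ library was higher in pairs 2, 3 and 4 and lower in pair 1. The means were 16.8 ± 5.12 CPM in YFP+ and 12.9 ± 4.06 CPM in YFP- cells (SD, n = 4), with a log2 fold change of 0.39 ± 0.220 (SE) with the block (adjusted p = 0.582, edgeR). Top2a, the topoisomerase that untangles replicated DNA, was at 9.02, 10.6, 10.7 and 11.8 CPM in YFP+ and at 14.1, 7.24, 7.01 and 10.98 CPM in YFP- libraries 1 to 4. Pair 1 was again the pair in which the YFP+ library was lower (log2 fold change 0.15 ± 0.233 (SE), adjusted p = 0.919 with the block, edgeR).

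Among the less abundant mitotic genes, pair 1 again stood against the others for Cenpf. This gene, a kinetochore protein, was at 2.41, 2.90, 3.56 and 4.00 CPM in YFP+ and at 4.79, 0.682, 1.32 and 3.14 CPM in YFP- libraries 1 to 4. YFP- library 1 was above every YFP+ library, and YFP- libraries 2 and 3 were below every one. Birc5 was at 1.76, 0.691, 0.800 and 2.41 CPM in YFP+ and at 1.61, 0.682, 0.877 and 0.152 CPM in YFP- libraries 1 to 4. Only pair 4 was wide apart for Birc5. Their log2 fold changes were 0.66 ± 0.514 and 0.78 ± 0.816 (SE) with the block (adjusted p = 0.745 and 0.848, edgeR). With libraries left out, Cenpf ranged from 0.07 (without YFP- library 2, no block) to 1.23 (without number 1, with the block). Birc5 ranged from 0.0043 (without number 4, with the block) to 1.31 (without YFP- library 1, no block). With the block and all libraries, the cyclins Ccna2 and Ccnb2 had 0.52 and 0.54, their kinase Cdk1 0.30, the spindle kinase Aurka 0.46, and the motor Kif11 0.26. Cdc20 and Ube2c, which act with the anaphase-promoting complex, had 0.17 and 0.08, and the spindle assembly factor Tpx2 -0.10. None was called (adjusted p = 0.795 or higher with the block, edgeR).

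The 4 mitotic genes below the count filter are given as counts, which are not scaled to library size. Plk1, a kinase of mitotic entry, had 7, 18, 18 and 39 counts in YFP+ and 8, 0, 12 and 4 in YFP- libraries 1 to 4. Aurkb, the kinase of the passenger complex, had 19, 1, 11 and 20 counts in YFP+ and 8, 0, 7 and 2 in YFP- libraries. Bub1, a checkpoint kinase, had 11, 0, 12 and 23 in YFP+ and 25, 0, 7 and 4 in YFP- libraries. Plk1 and Aurkb reached their highest count in YFP+ library 4, and Bub1 in YFP- library 1. Ccnb1 (cyclin B1) had 2, 11, 2 and 6 counts in YFP+ and 1, 3, 0 and 12 in YFP- libraries, with the highest in YFP- library 4. Of its transcript, 51.9% matches the annotated copies Gm12856 and Ccnb1-ps at 98% identity or more. Those copies held 0 and 1 counts.

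**Figure D3:**
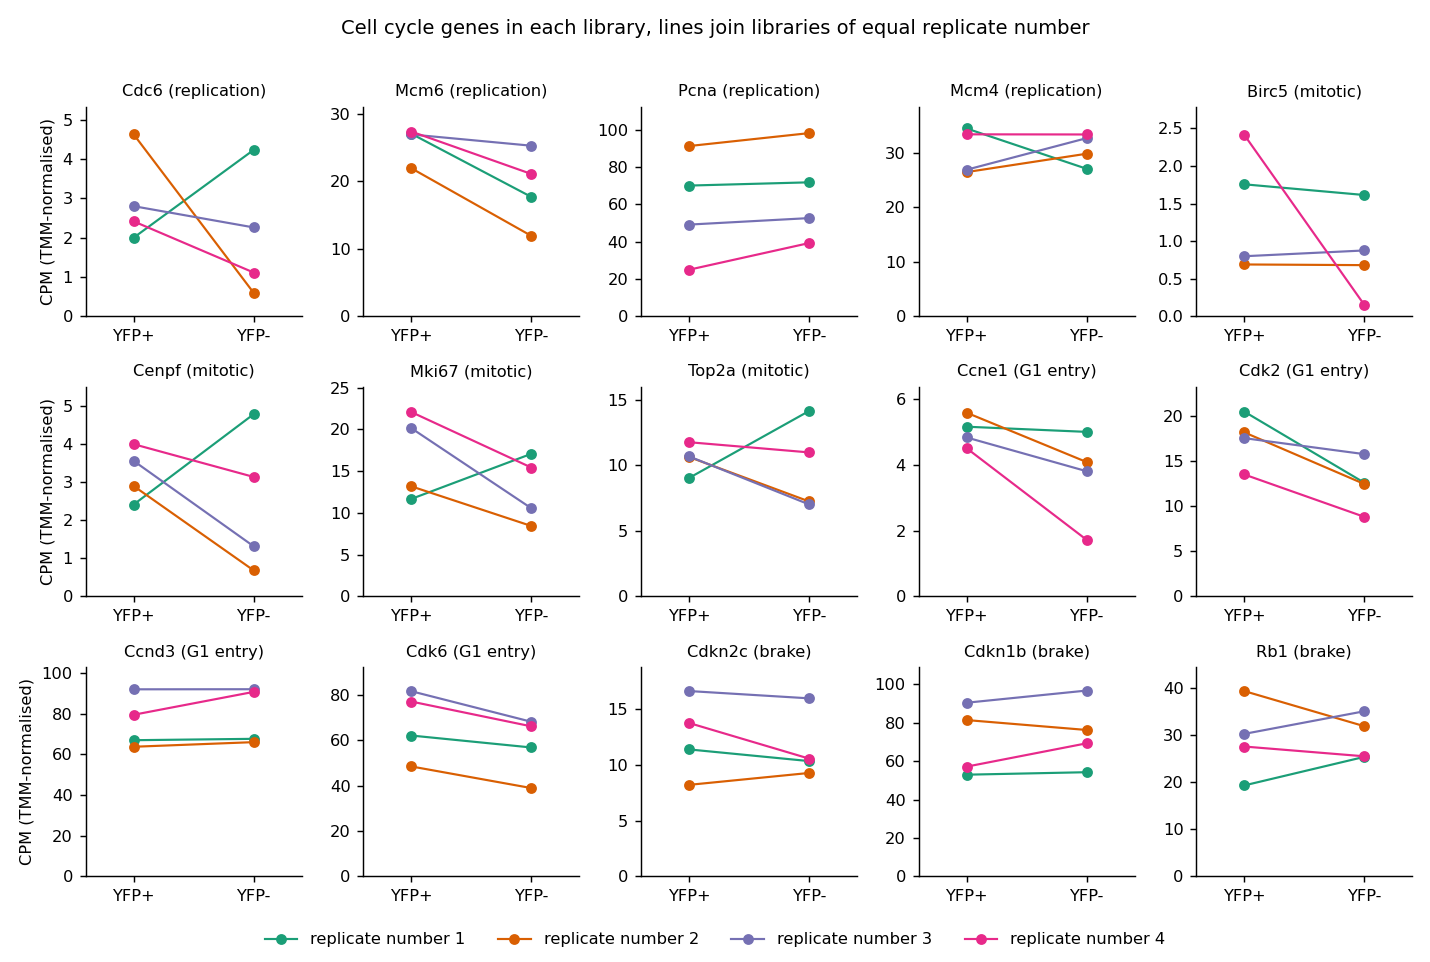
TMM-normalised CPM (y axis, from 0) of 15 genes in YFP+ and YFP- libraries; each line joins the libraries of equal replicate number. Mcm6 and Cdk2 slope the same way in 4 of 4 pairs, Mki67, Top2a and Cenpf slope the other way in pair 1, and the lines of Pcna, Ccnd3 and Cdkn1b lie apart by replicate number.

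Set side by side, the mitotic genes had a higher median difference than the replication genes in both fits. Without the block, this did not hold once YFP- library 2 was left out, which also changed the genes tested. Of 12 tested mitotic genes, 11 had a positive log2 fold change in either fit, with a median of 0.24 without and 0.34 with the block. Leaving out YFP- library 2, the shallowest, with no block, gave a median of 0.08 over the 15 mitotic genes then tested, against 0.10 over the replication genes. The part of that library's depth and of the changed set of genes in this was not tested. Leaving out both libraries of number 1, with the block, gave 0.70 over 13 mitotic genes. Of 11 replication genes, 7 were positive without and 8 with the block, with medians of 0.07 and 0.11. The median over all genes tested was 0.0045 without and 0.0048 with the block. Within pairs, 3 of 12 mitotic genes were higher in the YFP+ library in pair 1, then 10, 10 and 11 in pairs 2, 3 and 4. For the replication genes these numbers were 6, 5, 5 and 7 of 11. Mitotic genes share libraries and are not replicates of each other, so these counts carry no test.

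Geometric means here come from log2 CPM with a prior count of 2, which raises low values most. The geometric mean of the 12 mitotic genes was 2.37, 2.58, 3.22 and 3.73 CPM in YFP+ libraries 1 to 4. In YFP- libraries 1 to 4 it was 3.20, 1.82, 2.21 and 2.21 CPM. That of the 11 replication genes was 14.2, 12.6, 11.9 and 11.7 CPM in YFP+ and 14.2, 10.2, 12.1 and 9.62 CPM in YFP- libraries. The ratio of replication to mitotic genes was thus 6.0, 4.90, 3.70 and 3.13 in YFP+ and 4.42, 5.60, 5.47 and 4.36 in YFP- libraries 1 to 4. On the log2 scale the ratio averaged 2.10 ± 0.418 in YFP+ and 2.30 ± 0.193 in YFP- cells (SD, n = 4). The YFP+ minus YFP- difference was -0.20, smaller than its SD of 0.454 over the 4 pairs, and the YFP+ library had the higher ratio in 1 of 4 pairs. With pairs left out in turn, the difference was larger in size than its SD only without pair 1 (-0.41, SD 0.195 over the other 3 pairs). Without pair 2, 3 or 4 it was -0.20, -0.078 and -0.10, with SDs of 0.556, 0.470 and 0.506. Over the settings tried the difference ranged from -0.41 to -0.046, which it took without YFP+ library 4. Summed epithelial markers were higher in the YFP+ library of pairs 2 and 4 (23.5 against 4.09 CPM and 113 against 21.7 CPM) and lower in pairs 1 and 3 (6.65 against 19.3 CPM and 0.720 against 1.82 CPM). Leukocyte markers were higher in the YFP+ library of 4 of 4 pairs. Summed endothelial markers were lower in the YFP+ library of pairs 1 and 2 (33.9 against 64.6 CPM and 61.3 against 98.5 CPM). They were higher in pairs 3 and 4 (80.4 against 44.0 CPM and 171 against 43.9 CPM). Epithelial, leukocyte and endothelial markers each lay on the same side as the mitotic mean in 3 of 4 pairs. The part of these cells in the mitotic values was not tested, and more cycling cells and more mitotic RNA per cell cannot be told apart in bulk RNA.

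**Figure D4:**
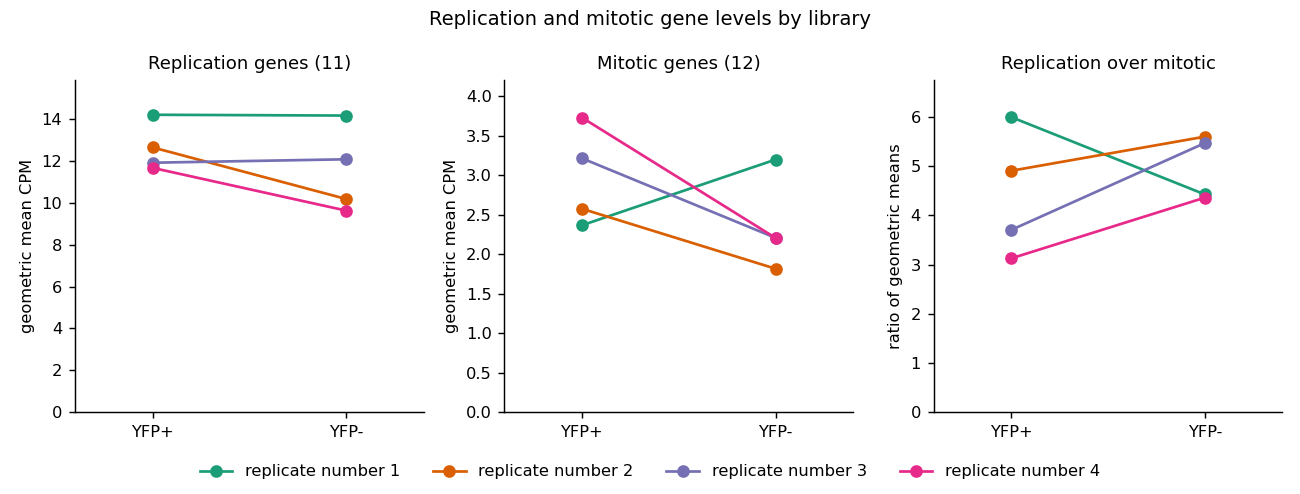
Geometric mean CPM of the 11 tested replication genes, of the 12 tested mitotic genes, and the ratio of these means (y axes, from 0) in YFP+ and YFP- libraries, with lines joining equal replicate numbers. For the mitotic genes pair 1 is at 2.37 CPM in YFP+ against 3.20 CPM in YFP-. The other 3 pairs are higher in YFP+. Means come from log2 CPM with a prior count of 2.

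Genes of entry into the cycle were more abundant than the mitotic genes per length, and none of the 9 was called. Cdk2, the kinase partner of cyclins E and A (ENSMUSG00000025358, chromosome 10, 128697939 to 128705031, minus strand), was at 20.5, 18.2, 17.5 and 13.5 CPM in YFP+ and at 12.6, 12.4, 15.7 and 8.80 CPM in YFP- libraries 1 to 4. The YFP+ library was higher in 4 of 4 pairs, and only YFP+ library 4 lay below a YFP- library, number 3. The means were 17.4 ± 2.90 CPM in YFP+ and 12.4 ± 2.84 CPM in YFP- cells (SD, n = 4). The log2 fold change was 0.49 ± 0.242 (SE) without and 0.50 ± 0.170 with the block (adjusted p = 0.99985 and 0.199, edgeR). Cdk6, a partner of the D-type cyclins, was at 62.1, 48.5, 81.6 and 77.1 CPM in YFP+ and at 56.8, 38.9, 68.2 and 66.1 CPM in YFP- libraries 1 to 4. Within each pair the YFP+ library was the higher, by less than the spread between replicate numbers (log2 fold change 0.23 ± 0.0831 (SE), adjusted p = 0.237 with the block, edgeR). Ccne1, cyclin E1, was at 5.17, 5.59, 4.84 and 4.51 CPM in YFP+ and at 5.01, 4.09, 3.81 and 1.72 CPM in YFP- libraries 1 to 4. YFP+ was higher in 4 of 4 pairs, most so in pair 4 (log2 fold change 0.54 ± 0.338 (SE), adjusted p = 0.648 with the block, edgeR).

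The D-type cyclins differed more between replicate numbers than between groups. Ccnd3 was at 66.9, 63.7, 91.9 and 79.4 CPM in YFP+ and at 67.6, 65.9, 91.9 and 90.6 CPM in YFP- libraries 1 to 4. Ccnd2, taken up here after its values were seen, was at 65.4, 50.5, 40.3 and 56.9 CPM in YFP+ and at 80.1, 59.0, 45.4 and 66.3 CPM in YFP- libraries 1 to 4. Ccnd2 was the lower in the YFP+ library of 4 of 4 pairs (log2 fold change -0.23 ± 0.0844 (SE), adjusted p = 0.255 with the block, edgeR). Ccnd1, also taken up after its values were seen, was at 25.5, 2.28, 12.1 and 31.6 CPM in YFP+ and at 20.5, 6.05, 16.4 and 24.4 CPM in YFP- libraries 1 to 4. Replicate number 2 was low in both groups, and the mean of the highest number was 6.73 times that of the lowest, against 1.70 times for Ccnd2 and 1.42 times for Ccnd3. Cdk4 was lowest in number 2 as well, at 25.2 CPM in YFP+ and 32.2 CPM in YFP-, with the other libraries between 40.6 and 57.7 CPM. Ccnd1, Cdk4, Ccne2 (cyclin E2) and E2f1 had log2 fold changes of -0.18, 0.08, -0.32 and 0.31 with the block, none called (adjusted p = 0.902 or higher, edgeR).

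None of the brakes was called. Rb1, the retinoblastoma protein, was at 19.4, 39.4, 30.3 and 27.6 CPM in YFP+ and at 25.4, 31.9, 35.1 and 25.6 CPM in YFP- libraries 1 to 4. Cdkn1b, the CDK inhibitor p27, was at 53.0, 81.4, 90.4 and 57.2 CPM in YFP+ and at 54.3, 76.2, 96.8 and 69.3 CPM in YFP- libraries 1 to 4. Cdkn2c, the inhibitor p18 of CDK4 and CDK6, was at 11.4, 8.22, 16.6 and 13.8 CPM in YFP+ and at 10.4, 9.29, 15.98 and 10.6 CPM in YFP- libraries 1 to 4. With the block their 95% intervals were -0.34 to 0.24, -0.26 to 0.10 and -0.29 to 0.50 on the log2 scale (adjusted p = 0.961, 0.849 and 0.928, edgeR). Libraries of number 3 were the highest for Cdkn1b and Cdkn2c in both groups.

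Replicate number took a larger median share of the variance of these genes than the group did, though a smaller one than over all genes. Of the variance of log2 CPM over the 8 libraries, the number took a median of 59.0% and the group 5.43% over the 35 members, against 72.4% and 4.35% over all genes tested. With 3 and 1 of 7 degrees of freedom, unrelated values would give 42.9% and 14.3% on average. Those are means, and the median of a skewed share differs from its mean. The medians above can therefore not be set directly against them. The median share of the number was 85.1% in entry genes, 89.4% in brakes, 65.6% in replication genes and 45.3% in mitotic genes, which had the fewest counts. Among the members it was highest in Ccnd3 (94.9%), Cdkn1b (93.9%), Pcna (92.6%) and Ccnd1 (89.7%). The share of the group was highest in Cdk2 (48.0%) and Mcm6 (40.3%). How many of all genes reach such shares was not counted, so these values do not set the members apart. The labels do not say what the number marks, so a shared mouse and a shared day of preparation cannot be told apart.

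**Figure D5:**
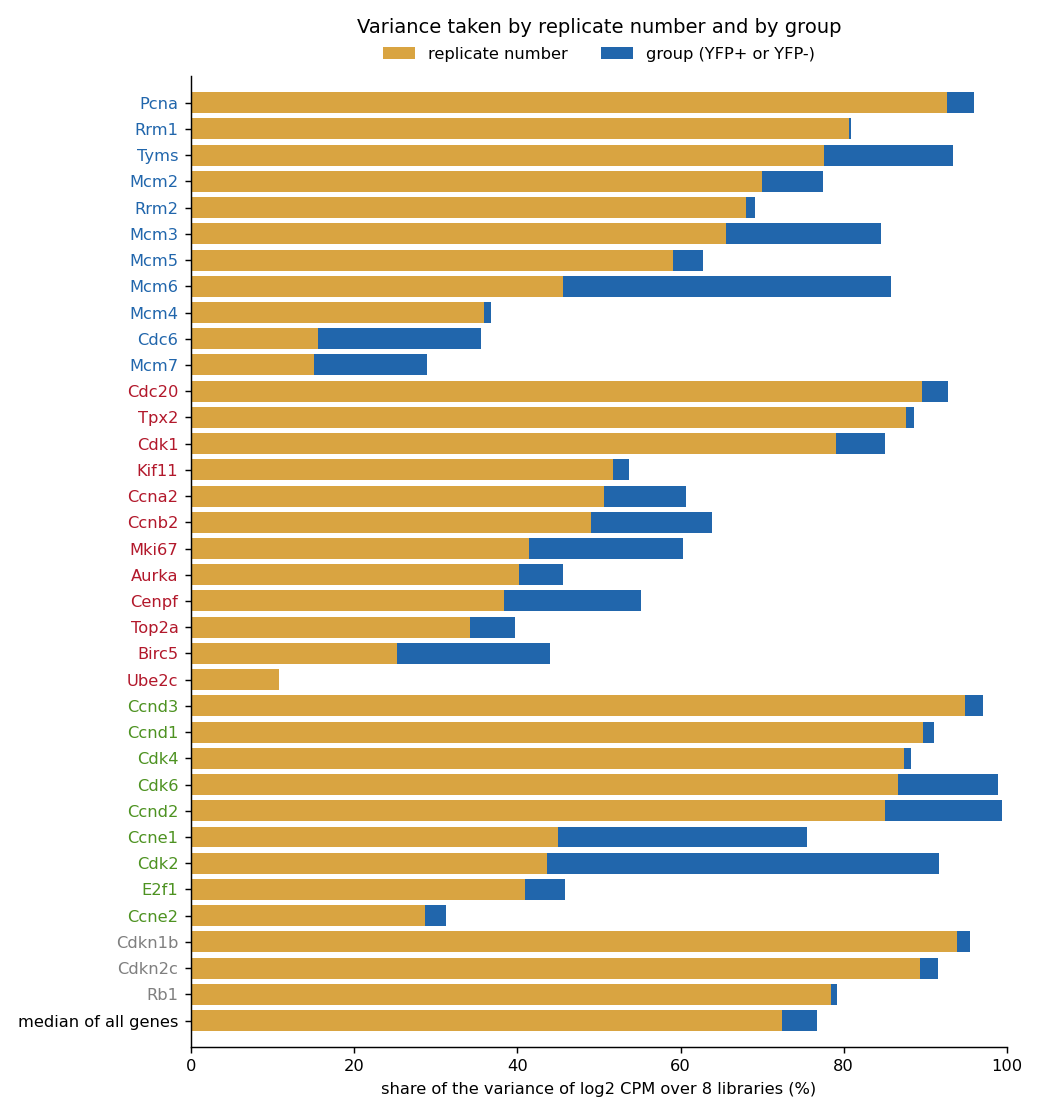
Share of the variance of log2 CPM over the 8 libraries (x axis, %) taken by the replicate number and by the group, for each tested gene and for the median of all genes tested; gene names are coloured by role as in the plot of fold changes. The group's bar is longest for Cdk2 and Mcm6, and the number's bar for Ccnd3 and Cdkn1b.

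Of 92 other cell cycle genes, 89 were tested, and 0 were called higher or lower in either edgeR fit, as for the 35 genes above. At an unadjusted p under 0.05 with the block, 1 was higher and 6 lower, against 4.69% and 6.42% of all genes. By role, 0 of 33 other replication genes, 0 of 40 other mitotic genes, 0 of 8 other entry genes and 0 of 8 other brakes were called. Their medians with the block were 0.03, -0.08, -0.0011 and 0.07 on the log2 scale, a negative median for the 40 other mitotic genes where that of the 12 was positive. Of them, 18 had a positive and 22 a negative log2 fold change with the block. Myc, the growth regulator upstream of the cycle, had the lowest adjusted p, at 0.174 (edgeR). It was at 59.5, 78.3, 45.3 and 22.6 CPM in YFP+ and at 104, 81.7, 55.9 and 50.5 CPM in YFP- libraries 1 to 4. Myc was the lower in the YFP+ library of 4 of 4 pairs, with overlapping groups (log2 fold change -0.58 ± 0.165 (SE) with the block), and DESeq2 with the block called it (adjusted p = 0.00500). Cdkn1a, the CDK inhibitor p21, was at 100.6, 149, 52.3 and 35.6 CPM in YFP+ and at 101.4, 178, 64.4 and 47.7 CPM in YFP- libraries 1 to 4 (log2 fold change -0.24 ± 0.0821 (SE), adjusted p = 0.195 with the block, edgeR).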

How the data were processed

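RNA was sequenced from 8 libraries, 4 YFP+ and 4 YFP-, made with a stranded low-input total RNA kit, per the labels' protocols. Reads were processed with featureCounts 2.0.1, STAR 2.7.3a, cutadapt 3.4 and DESeq2 on GRCm38 (tools, per the submitters' processing notes); the sources used here give no settings, strand option or annotation release. The deposited table holds raw counts per gene, per the file headers. It also holds a deposited score (counts divided by a size factor and rounded, within 0.501 of that quotient for genes under 1000 counts), not analysed further. The authors' log2 fold changes and adjusted p-values stand in the same deposited table.

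Tests used edgeR 4.0.16 (R 4.3.3) on the counts of all genes: filterByExpr, TMM, robust quasi-likelihood fit on group, two-sided, Benjamini-Hochberg adjustment, calls at 0.05. Other settings used DESeq2 1.42.0, RLE factors, library sizes alone, other count filters, the replicate number as a block, and libraries left out; the fit was tested on simulated data. SEs come from the quasi-likelihood F. CPM are TMM-normalised. Groups and numbers come from the sample titles, which do not say whether libraries are separate animals, so p-values measure the spread between these samples. The numbers pair the samples by the data: deviations from group means correlated at 0.233 to 0.487 between equal numbers and at most 0.0456 between different ones. Counts of same-group libraries differed beyond sampling noise in all 12 pairs (chi-square per degree of freedom at least 50.9). Members and gene lists were chosen with earlier results of these data known. Given in full were, per role, the 2 tested genes with the largest change in the blocked fit and the 2 with the highest CPM. Variance shares come from a layout of number and group on log2 CPM (prior count 2). Spans, exons and copies (BLAST+ 2.17.0) come from GENCODE M21; 6 members have 10% or more of their exons under a gene on the opposite strand.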

Additional observations from a re-analysis of the deposited data

Results flagged for a closer look

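In 3 of the 72 sets of 4 libraries checked, 1 library lay far from the other 3, which is 4.17% where chance gives about 1 in 20. Mcm5 was at 9.30 CPM in YFP+ replicate 1, with the other YFP+ libraries at 6.64 to 7.04 CPM. Mcm6 was at 22.0 CPM in YFP+ replicate 2, with the others at 27.0 to 27.4 CPM; that library was also the 1 that a YFP- library exceeded. Ccnb2 was at 4.55 CPM in YFP+ replicate 4 (115 counts), with the others at 2.34 to 2.56 CPM.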

How the results depend on the processing

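No member that was tested was called under any of the 23 other settings, though DESeq2 with the block called Myc among the other cell cycle genes. Of the 40 genes, 39 were tested with no count filter and 30 with the stricter filter. Of the 15 genes given in full, 7 kept their direction in every setting that tested them; Birc5 was not tested under the stricter filter. With the replicate block, 364 genes of the whole table were called where 0 were without it. It changed no call among the members. Over the whole table DESeq2 called 2 genes, or 526 with the block. With the block, RLE factors called 364, a stricter filter 416 and library sizes alone 365. The last split as 212 higher and 153 lower, against 111 and 253 with TMM, and moved the median log2 fold change of all genes to 0.09. With the block and without number 1, 2, 3 or 4 the counts were 194, 426, 157 and 167.

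With library sizes alone the log2 fold changes of Mcm4, Ccnd3, Cdkn1b and Rb1 turned to 0.065, 0.023, 0.0090 and 0.065 without and 0.062, 0.022, 0.0062 and 0.037 with the block. With the block, Rb1 turned to 0.065 and 0.0065 without numbers 1 and 3, Mcm4 to 0.021 and 0.061 without numbers 2 and 3, and Top2a to -0.011 without number 3. Leaving out libraries with no block gave ranges of -0.073 to 1.13 for Cdc6, -0.44 to 0.10 for Pcna, -0.081 to 0.040 for Mcm4 and -0.038 to 0.32 for Top2a. They were -0.17 to 0.015 for Ccnd3, -0.049 to 0.32 for Cdkn2c, -0.22 to 0.082 for Cdkn1b and -0.20 to 0.14 for Rb1. The cause of these turns was not tested. Leaving out both libraries of number 2 with no block was chosen after seeing the data. Low counts limit most mitotic genes.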
